A study of Mus musculus with 12 samples.

Results

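The genes described here are 59 mouse genes of mitosis, namely subunits of the kinetochore, mitotic kinesins, components of the spindle assembly checkpoint, and the kinases, chromosome proteins and chromatid separation factors that act with them. They were chosen by gene symbol, and all 59 were found among the 55536 annotated genes of the deposited gene count table. For description they were placed into 10 groups by role.

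The study gave OT-I CD8+ T cells, whose transgenic T cell receptor recognizes the SIINFEKL peptide of ovalbumin, an antigen signal with or without costimulation in vivo, and asked how costimulation changes the RNA of the responding cells. In the Ag group, mice that had received CD45.1+ OT-I cells were injected with the peptide and control rat IgG, and in the Ag+Costim group the peptide came with agonist antibodies against CD134 (OX40) and CD137 (4-1BB), tumor necrosis factor receptor family members on activated T cells. Naive cells were OT-I cells of mice that were neither transferred nor treated. All cells carried the same transgenic receptor and came, per the study's methods, from donors that lack a Rag gene, and the transferred cells lived in C57BL/6J hosts that kept their own lymphocytes until CD8+ CD45.1+ Vα2+ Vβ5+ cells were sorted. The labels give day 4 as the time of harvest of both injected groups. RNA-seq was done for 5 Ag, 5 Ag+Costim and 2 Naive libraries, each listed as a sample of its own, so that the tests measure the spread between these libraries.

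To divide, a cell enters mitosis through the kinase CDK1, whose activators and partner kinases rise late in the cell cycle. Kinetochores then assemble on centromeres and bind spindle microtubules, kinesin motors build and move along the spindle, and the checkpoint holds back the anaphase-promoting complex until every chromosome is attached. Separase then cuts the cohesin that joins sister chromatids, and the cleavage furrow divides the cell. Most of these genes are transcribed in late cell cycle phases, and in resting T cells they are known to be low, rising when the cells clonally expand after antigen.

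Many late cell cycle promoters are known to carry a cell cycle genes homology region (CHR) close to the transcription start and CCAAT boxes upstream of it, so the members' promoters were searched for these letters. RefSeq promoters on GRCm38.p6, from 250 bases before to 50 bases after a start, were matched by symbol for 51 of the 59 members, in 56 windows. Not in that table were Cdc25c, Foxm1, Aurkb, Incenp, Spc24, Kif20a, Tpx2 and Smc4. The 5 stretches below show the 150 bases before the start, read 5′ to 3′ toward the gene, for the member with the largest response to costimulation (Espl1), for 3 further members with a CHR near the start and CCAAT boxes upstream of it (Kif11, Top2a and Cdk1) and for Birc5, which rose and held neither. Capitals mark CHR letters (TTTGAA or TTCGAA, or TTCAAA for TTTGAA on the other strand) and CCAAT boxes (CCAAT, or ATTGG on the other strand).
Espl1: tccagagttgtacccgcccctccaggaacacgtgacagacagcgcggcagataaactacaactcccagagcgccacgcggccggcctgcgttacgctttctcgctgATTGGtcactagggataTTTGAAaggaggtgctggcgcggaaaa
Kif11: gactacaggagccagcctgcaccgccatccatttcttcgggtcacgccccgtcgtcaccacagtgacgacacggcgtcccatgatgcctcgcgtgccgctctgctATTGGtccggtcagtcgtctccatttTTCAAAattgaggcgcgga
Top2a: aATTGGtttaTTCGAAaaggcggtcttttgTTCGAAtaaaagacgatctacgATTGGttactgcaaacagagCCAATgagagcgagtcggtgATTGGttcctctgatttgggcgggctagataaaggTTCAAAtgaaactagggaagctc
Cdk1: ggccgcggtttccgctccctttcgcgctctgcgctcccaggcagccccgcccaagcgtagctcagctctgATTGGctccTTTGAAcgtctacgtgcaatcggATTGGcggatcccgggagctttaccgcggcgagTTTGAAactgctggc
Birc5: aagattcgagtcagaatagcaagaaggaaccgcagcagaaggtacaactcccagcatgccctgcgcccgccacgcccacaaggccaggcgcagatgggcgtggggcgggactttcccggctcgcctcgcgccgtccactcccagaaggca
The Espl1 bases lie at chr15:102296143-102296292 on the plus strand. The Kif11 bases lie at chr19:37376232-37376381 on the plus strand. The Top2a bases lie at chr11:99024190-99024339 on the minus strand. The stretch of Cdk1 is at chr10:69352913-69353062 on the minus strand and that of Birc5 at chr11:117849087-117849236 on the plus strand. In GENCODE the last bases of the Espl1 and Cdk1 stretches fall in the first exon of a longer model of the gene.

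The CHR letters were found on either strand in 38 of the 51 members with a promoter (74.5%), against 21.7% of all 27025 genes in the same table with windows of the same length. CCAAT boxes were found in 36 members (70.6%), against 41.1% of all genes. The end bases of a CHR and a CCAAT box can be shared, and TTCGAA reads the same on both strands. A CHR with a CCAAT box starting 20 to 40 bases upstream of it, as in Kif11, Top2a and Cdk1 above, was found in 17 members (33.3%) and in 1.10% of all genes, a distance chosen after the positions were seen. In Espl1 the matches lie closer together, with the first base of the CCAAT box at -44 and that of the CHR at -27 from the start. E2F letters (TTCCCGC or TTGGCGC, either strand) were found in 13 members (25.5%), against 7.79% of all genes. Among 12 genes of DNA replication that have a promoter there, a CHR was held by 3, a CCAAT box by 9 (75%), the spaced pair by 1 and E2F letters by 7. The CCAAT share was thus not particular to the members. The motif positions show the members' CHR matches gathered near the start. The CHR share varied little by direction of change over all genes, since 17.5% of the genes called higher in Ag+Costim than in Ag, 16.6% of those called lower and 17.2% of all genes tested with a promoter held them. In the same order, E2F letters were held by 19.0%, 9.54% and 13.3%, CCAAT boxes by 45.0%, 43.3% and 42.8%, and the spaced pair by 1.92%, 1.11% and 1.18%. Such matches describe the letters and say nothing on binding.

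**Figure D1:**
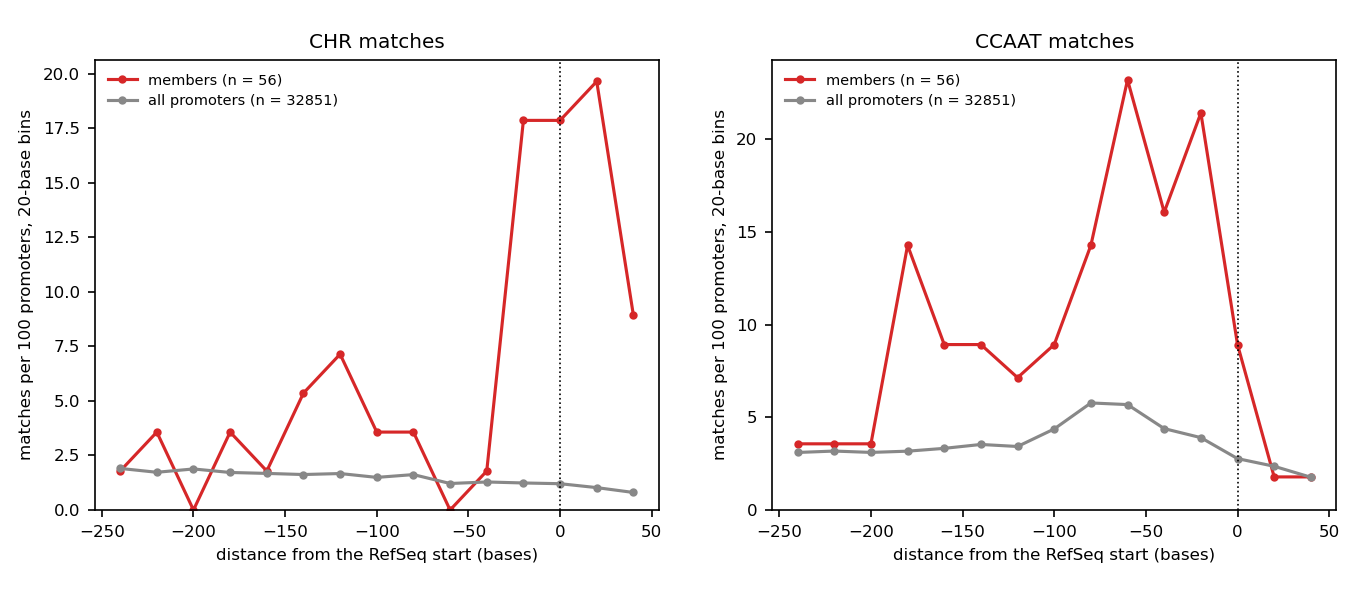
Matches of the CHR letters (left) and of CCAAT (right) per 100 promoters in bins of 20 bases, plotted against the distance from the RefSeq start, for the 56 promoter windows of the members (red) and all 32851 windows (grey). From 30 bases before to 30 bases after the start, the members' CHR matches number 17.9 to 19.6 per 100 promoters in each bin, against 1.03 to 1.24 over all promoters.

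Depth was similar between groups except in 1 library. The annotated gene counts summed to 23976932 in Ag 4 and to between 39994606 and 49258758 in the other 11 libraries, and replicates of a group correlated at a Spearman rho of 0.966 to 0.984 over genes. Reads of the sequencing core aligned at 72.3% to 76.5%. Cd4 stayed at or below 2.44 CPM (counts scaled to library size after TMM) in every library, and the summed T cell markers lay between 5451 and 13493 CPM. Markers of other cell types were present at levels that differed between libraries. The 7 erythroid markers summed to 626 to 6381 CPM in Ag, 150 and 2071 CPM in Naive and 14.5 to 223 CPM in Ag+Costim, nearly all of it from the 4 globin genes. The 5 B cell markers summed to 1113 to 1840 CPM in Ag and 578 to 1186 CPM in Ag+Costim, most of it Ighm, and the Naive libraries, from Rag-deficient mice, had 1048 and 1059 CPM. Gene by gene they differed more than these sums. In Ag against Naive 4 of the 5 were called higher (24.2% of all genes were) and 0 lower, with a median log2 fold change of 4.86. In Ag+Costim against Naive 3 were higher (26.9% of all genes were) and 1 lower (25.4%), with a median of 3.38. From Ag to Ag+Costim, 26.6% of all genes were called higher and 26.5% lower. The T cell, B cell and erythroid markers were called lower in 6 of 7, 4 of 5 and 6 of 7 genes. Of the myeloid markers 3 of 6 were called higher, at sums of 24.8 to 148 CPM over all libraries. Of the NK cell markers 1 of 2 was called lower, at sums of 1.22 to 14.5 CPM. The part of other cells in the results was not tested.

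Costimulation raised nearly the whole mitotic program above the level that antigen alone gave. In Ag+Costim against Ag, 56 of the 59 members were called higher (edgeR quasi-likelihood test, Benjamini-Hochberg adjusted p below 0.05 over 18817 genes), where 26.6% of all genes tested were called higher. Smc4 and Pttg1 were called lower, against 26.5% of all genes, and Bub3 was not called. The median log2 fold change of the members was 1.69, a 3.22-fold difference, with a range from -0.89 to 3.91, beside a median of -0.05 over all genes tested. Every Ag+Costim library lay above every Ag library in 54 members, which holds for 21.4% of genes tested, and below in Smc4 and Pttg1, which holds for 18.5%. In bulk RNA a larger share of cells in mitosis and more of these mRNAs per dividing cell cannot be told apart. Upper-quartile scaling moved the median of all genes by -0.20 and gave 4056 genes higher and 6338 lower in place of 5006 and 4979. Longer genes also rose more, with a Spearman rho of 0.22 between exon length and log2 fold change over all genes tested and 0.27 over the members, and after a length correction the members' median was 1.53.

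Antigen alone had already raised the program far above the Naive level. In Ag against Naive, 57 members were called higher, where 24.2% of all genes were. Cenpt was called lower, where 22.5% of all genes were, and Racgap1 was not called. The median log2 fold change was 3.74, a 13.3-fold difference. In Ag+Costim against Naive, 56 members were called higher and 0 lower by edgeR, 0 at an unadjusted p below 0.05 and 0 lower by DESeq2, where 26.9% and 25.4% of all genes were, and the median reached 5.43, or 43.1-fold. Cenpt, Smc4 and Pttg1 were not called in that comparison. The comparisons share libraries, so their values for a gene are not independent of each other.

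The members' joint share of all counts shows the same steps. They held 0.170% ± 0.00224 (SD, n = 2) of the counts in Naive, 0.548% ± 0.0895 (SD, n = 5) in Ag and 1.33% ± 0.115 (SD, n = 5) in Ag+Costim. The groups did not overlap, since Ag libraries ranged from 0.418% to 0.643% and Ag+Costim libraries from 1.15% to 1.43%. Smc4 took more counts than any other member in all Naive and Ag libraries, whereas Top2a or Racgap1 did in Ag+Costim.

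**Figure D2:**
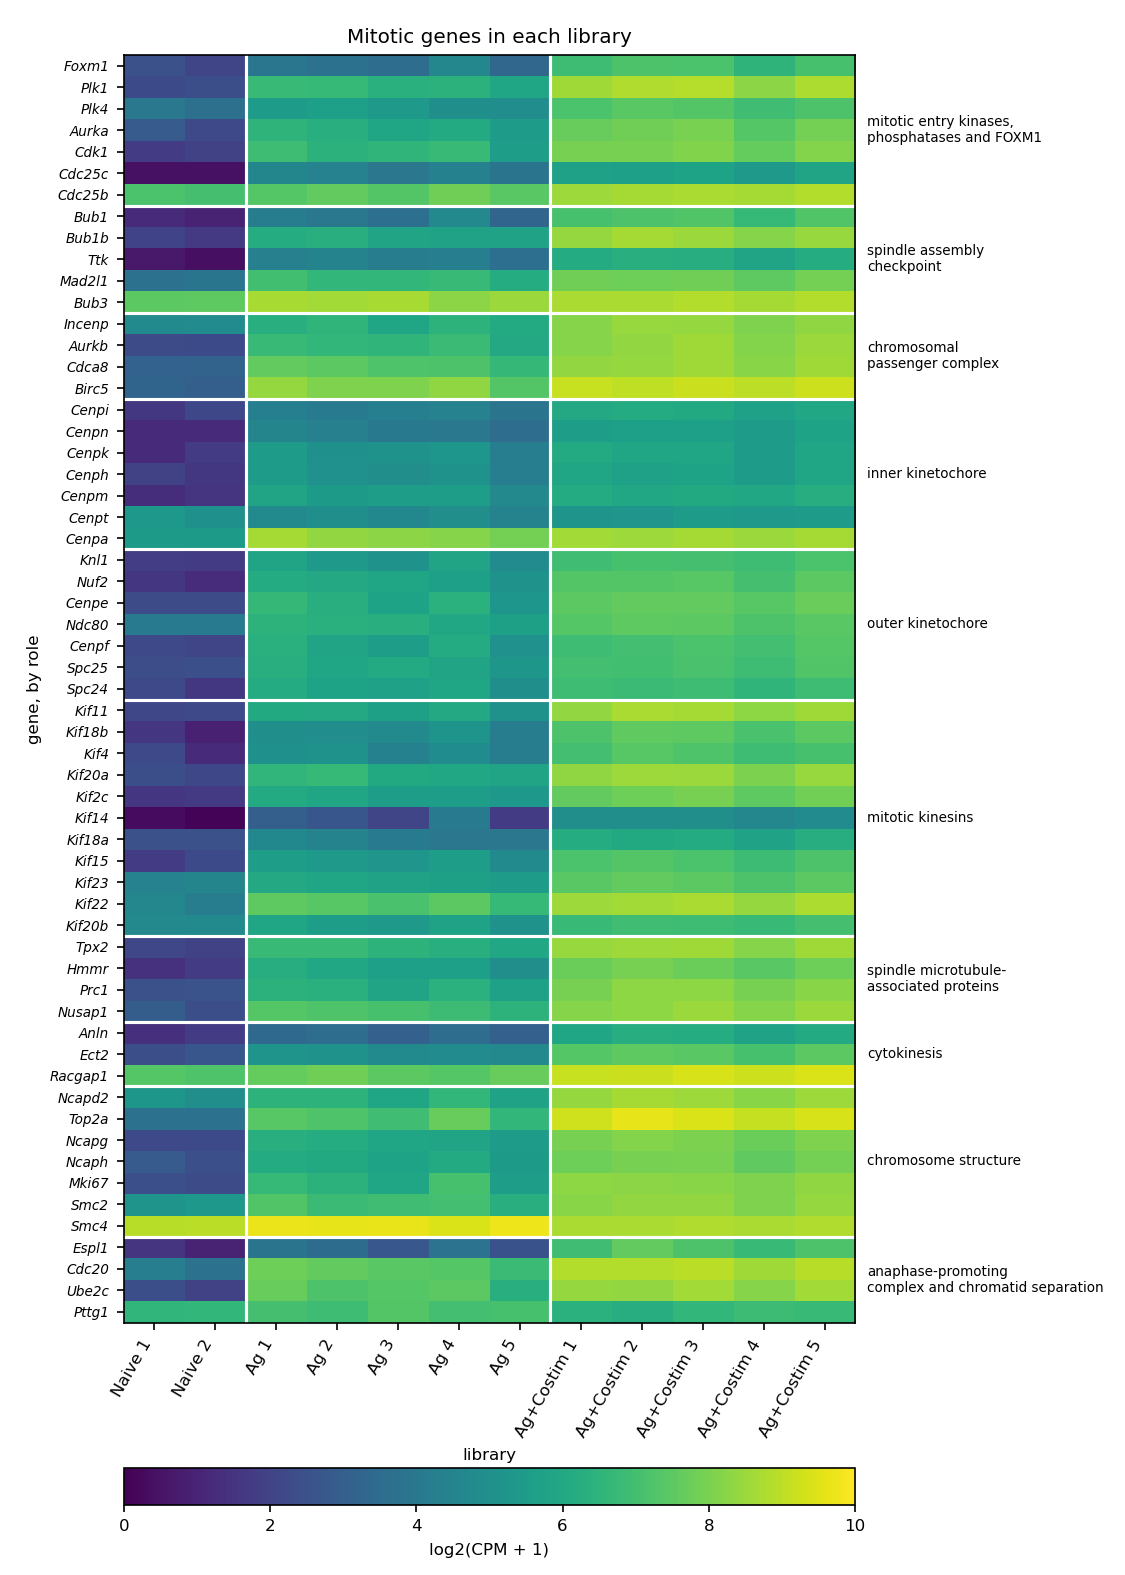
Level of each of the 59 genes (rows, grouped by role) in each of the 12 libraries (columns), as log2(CPM + 1) on a color scale from 0 to 10. Most rows brighten from Naive to Ag and again to Ag+Costim, whereas Smc4 is brightest in Ag, and Bub3, Racgap1, Cdc25b, Smc4 and Pttg1 are already bright in Naive.

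**Figure D3:**
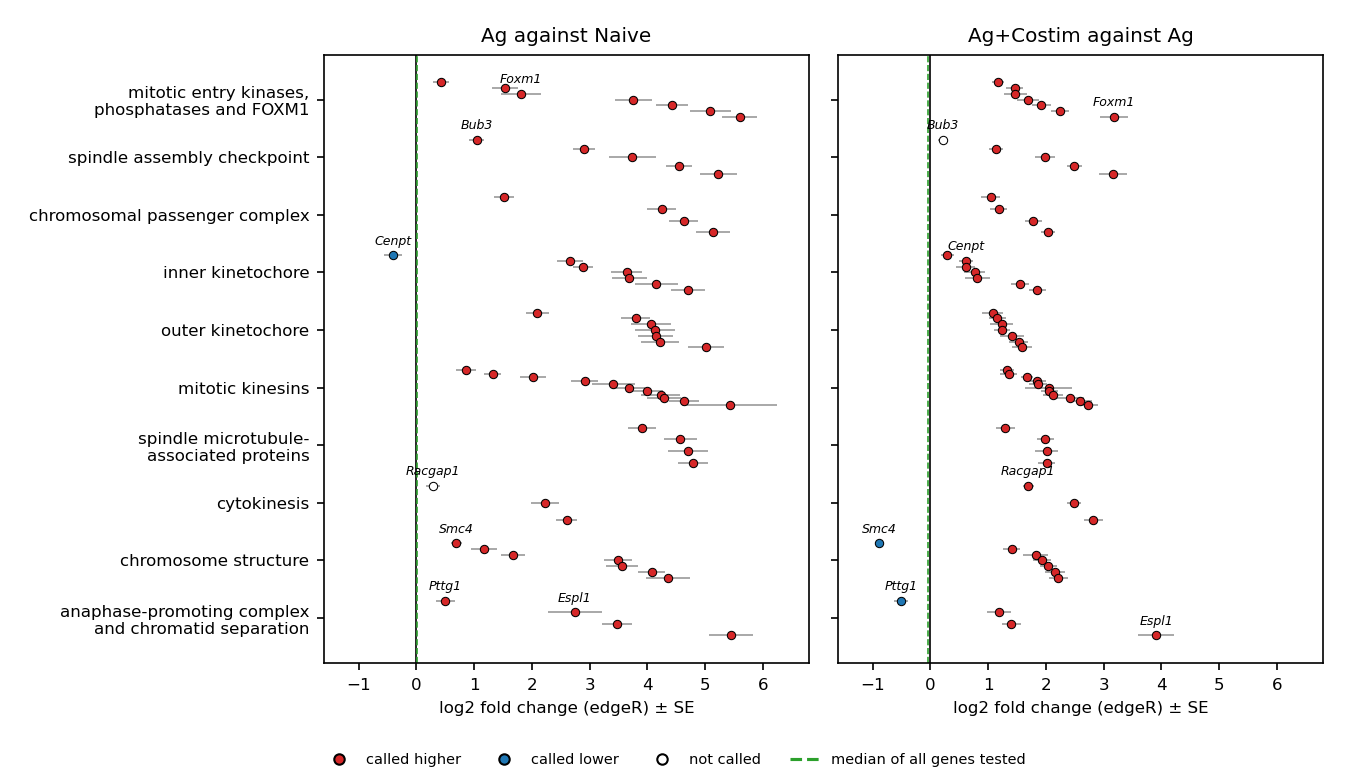
EdgeR log2 fold change with its SE (x axis) of each gene by role (y axis), for Ag against Naive (left) and Ag+Costim against Ag (right), with genes called higher in red, lower in blue and not called in white. In the right panel 56 points are red, Smc4 and Pttg1 are blue and Bub3 is white, and the dashed line at -0.05 is the median of all genes tested.

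The genes that start mitosis rose in full, 7 of 7, with a median log2 fold change of 1.69. Foxm1, which encodes the transcription factor of many late cell cycle genes, changed most among them. Its CPM was 14.3, 12.4, 10.8, 23.9 and 8.78 in Ag 1 to 5 and 119, 148, 141, 89.8 and 134 in Ag+Costim 1 to 5, beside 4.65 and 3.28 in Naive. The lowest costimulated library thus lay well above the highest Ag library, and the log2 fold change was 3.18 ± 0.25 (SE, adjusted p = 2.66e-07, edgeR). Most of the rise of Foxm1 over Naive came with costimulation, as its log2 fold change in Ag against Naive was 1.82.

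Cdk1, the kinase that drives entry into mitosis, behaved the other way around on the log2 scale, with the larger step at antigen. In CPM its larger step came with costimulation. It measured 2.45 and 2.83 CPM in Naive, 117, 85.2, 92.6, 109 and 46.9 CPM in Ag and 243, 249, 274, 200 and 281 CPM in Ag+Costim. Its log2 fold change was 5.09 ± 0.36 (SE) in Ag against Naive and 1.47 ± 0.20 (SE, adjusted p = 2.90e-05, edgeR) in Ag+Costim against Ag. Plk1, a kinase of spindle assembly and checkpoint recovery, rose by 2.24 ± 0.16 (SE, adjusted p = 1.19e-07, edgeR), from 59.5 to 105 CPM in Ag to 306 to 467 CPM in Ag+Costim. The smallest change in this group was that of Cdc25b, a phosphatase that activates CDK1, at 1.17 ± 0.10 (SE). Cdc25b was already at 141 and 132 CPM in Naive and at 159 to 225 CPM in Ag, and its rise of 0.42 in Ag against Naive lost its call without either Naive library (adjusted p = 0.0716 and 0.152) and in the 3 FPKM fits.

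In the spindle assembly checkpoint, 4 of 5 genes rose, with a median of 1.98. Bub1, a checkpoint kinase at the kinetochore, had 17.5, 15.1, 11.6, 25.3 and 8.63 CPM in Ag and 135, 148, 156, 102 and 155 CPM in Ag+Costim, with 1.34 and 0.987 CPM in Naive. Its groups were far apart, and it rose by 3.16 ± 0.25 on the log2 scale (SE, adjusted p = 2.66e-07, edgeR), followed by Bub1b at 2.50 and Ttk, the kinase that starts the signal, at 1.98. Bub3, the partner that carries BUB1 and BUBR1 to the kinetochore, overlapped between the groups at 304 to 410 CPM in Ag and 399 to 462 CPM in Ag+Costim. The change of 0.22 ± 0.09 (SE, adjusted p = 0.0593, edgeR) passed the threshold with DESeq2 (adjusted p = 0.0479) and without Ag 1, Ag 3 or Ag+Costim 4 (0.0469, 0.0423 and 0.0336), was 0.02 with upper-quartile scaling and turned to -0.11 with the length correction. Subunits of 1 complex thus differed in size of change, with Bub1 at 11.2% and Bub3 at 86.1% of its costimulated mean in Ag.

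The chromosomal passenger complex, which corrects wrong attachments and later prepares cytokinesis, rose in 4 of 4 genes with a median of 1.48. Its kinase Aurkb rose by 1.78 ± 0.14 (SE, adjusted p = 3.28e-07, edgeR), from 64.1 to 111 CPM in Ag to 280 to 380 CPM in Ag+Costim. The scaffold Incenp changed most, by 2.03 ± 0.12 (SE), and the groups did not overlap at 59.8 to 92.5 and 269 to 351 CPM. Birc5, or survivin, changed least in response to costimulation and among the most in response to antigen. Its CPM was 8.23 and 7.12 in Naive, 342, 267, 268, 323 and 157 in Ag, and 574, 526, 582, 508 and 609 in Ag+Costim. The log2 fold change of Birc5 was 5.14 ± 0.30 (SE) in Ag against Naive and 1.04 ± 0.16 (SE, adjusted p = 0.000120, edgeR) in Ag+Costim against Ag.

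The inner kinetochore, the layer that binds the centromere, showed the smallest median of the 10 groups, 0.77, although 7 of 7 genes were called higher. Cenpa, the histone variant that marks centromeres, overlapped between the groups. It measured 398, 333, 303, 293 and 241 CPM in Ag and 394, 371, 397, 363 and 398 CPM in Ag+Costim, against 42.4 and 42.8 CPM in Naive. The rise of 0.29 ± 0.11 on the log2 scale (SE, adjusted p = 0.0382, edgeR) lost its call in 9 of the 12 fits that left out 1 library, with adjusted p up to 0.0787, and was 0.02 with the length correction and 0.10 with upper-quartile scaling (adjusted p = 0.882 and 0.492). It was not called without the filter, with the 2 groups alone or in the 3 FPKM fits either. The losses came without Ag 3, Ag 4 or Ag 5, without Ag+Costim 1, 2, 3 or 5, and without either Naive library. Cenpi, a subunit of the constitutive centromere network, rose most in this layer, by 1.85 ± 0.15 (SE, adjusted p = 3.13e-07, edgeR), from 13.3 to 20.5 CPM to 52.4 to 70.7 CPM. Cenpm rose by 0.61 (adjusted p = 0.00697, edgeR), and with upper-quartile scaling its value was 0.41 and not called (0.0555).

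Cenpt, which links the inner layer to the NDC80 complex, changed little over the 3 groups. Its CPM was 38.9 and 31.3 in Naive, 26.4, 30.3, 24.5, 29.8 and 21.4 in Ag and 35.1, 36.4, 44.4, 40.7 and 45.5 in Ag+Costim. Costimulated libraries lay above all Ag libraries, by 0.61 ± 0.12 on the log2 scale (SE, adjusted p = 0.000745, edgeR), and overlapped the Naive libraries. The fall of 0.41 in Ag against Naive (adjusted p = 0.0464, edgeR) was not called without Naive 1 (0.388) or Naive 2 (0.0512), nor without Ag 1 (0.0724), Ag 3 (0.0816), Ag 5 (0.0804), Ag+Costim 3 (0.0549) or Ag+Costim 5 (0.0512). Cenpt overlaps Tsnaxip1 on the other strand, and reads of the pair cannot be told apart without strand.

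The outer kinetochore, which holds the microtubule, rose in 7 of 7 genes within a narrow range of 1.08 to 1.58. The NDC80 complex moved closely together, with log2 fold changes of 1.24 for Ndc80, 1.53 for Nuf2, 1.08 for Spc24 and 1.16 for Spc25. Spc24 had 30.6 to 69.8 CPM in Ag and 92.4 to 119 CPM in Ag+Costim. Knl1, the scaffold for BUB1 and BUB3, measured 56.7, 41.1, 34.2, 57.0 and 27.4 CPM in Ag and 121, 135, 133, 118 and 142 CPM in Ag+Costim. No library of Knl1 crossed between the groups in CPM, and its change of 1.58 ± 0.18 (SE, adjusted p = 5.25e-06, edgeR) was the largest of this layer on the count scale. In FPKM, which scales to transcript length, Knl1 had the smallest ratio of means of this layer, with 18.9 ± 5.67 in Ag and 29.1 ± 4.58 in Ag+Costim (SD, n = 5 each), and the highest Ag library (24.4) lay above the lowest Ag+Costim library (24.2). The change of Knl1, Ag+Costim against Ag, on log2(FPKM + 1) was 0.64 (adjusted p = 0.00925, limma).

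All 11 mitotic kinesins were called higher, with a median of 2.05. Kif11, the motor that pushes spindle poles apart, had 3.40 and 3.65 CPM in Naive, 66.5, 64.5, 50.8, 64.6 and 33.3 CPM in Ag and 328, 426, 399, 313 and 385 CPM in Ag+Costim. Its libraries were well separated and it rose by 2.73 ± 0.18 (SE, adjusted p = 5.88e-08, edgeR). Kif18b, a motor that shortens astral microtubules, and Kif4, a chromosome motor, came next at 2.60 and 2.42. The smallest change was that of Kif20b at 1.32 ± 0.13 (SE), from 34.4 to 57.2 CPM to 105 to 131 CPM, and in Naive it had 25.0 and 26.1 CPM. Kif14 had the fewest counts, 11 and 4 in the Naive libraries, and its log2 fold change of 5.42 ± 0.83 (SE) in Ag against Naive is the least precise of the members. The other motors of the family serve as a contrast in size of change, as 12 of 15 transport kinesins passed the filter on low counts. Of these, 5 were called higher (26.6% of all genes were) and 3 lower (26.5%), with a median of 0.21. Kif13b was the highest of them at 1.68.

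The 4 spindle microtubule-associated proteins rose with a median of 2.0. Tpx2, which activates Aurora A and nucleates microtubules, had 106, 109, 87.7, 77.6 and 60.9 CPM in Ag and 350, 373, 384, 291 and 384 CPM in Ag+Costim, a rise of 2.01 ± 0.15 (SE, adjusted p = 1.78e-07, edgeR). Nusap1, a microtubule bundling protein, rose least of the 4, by 1.30 ± 0.16 (SE), and it overlaps other annotated genes on both strands. The 3 genes of cytokinesis had the highest median of any group, 2.48. Anln, the furrow scaffold anillin, rose from 7.38 to 11 CPM to 53.0 to 74.3 CPM, by 2.82 ± 0.16 (SE, adjusted p = 2.81e-08, edgeR), and Ect2, which activates RhoA at the furrow, by 2.48 ± 0.12 (SE).

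Racgap1, the partner of ECT2 in the central spindle, showed its larger change with costimulation. Its CPM was 166 and 151 in Naive, 196, 224, 179, 165 and 203 in Ag and 572, 586, 673, 608 and 691 in Ag+Costim. Ag 4 lay below Naive 1, at a log2 ratio of 0.29 ± 0.13 (SE, adjusted p = 0.0781, edgeR) that was called without Ag 4 (0.0239), with upper-quartile scaling (0.0374) and with the length correction, where it was 0.64 (0.00151). For Racgap1, Ag against Naive, the value on log2(FPKM + 1) was 0.12 (adjusted p = 0.445, limma). In Ag+Costim against Ag it rose by 1.69 ± 0.10 (SE, adjusted p = 2.50e-08, edgeR).

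Of the 7 genes of chromosome structure, 6 rose and Smc4 fell. Top2a, the topoisomerase that untangles chromatids, reached the highest CPM of this group in Ag+Costim, 623, 788, 691, 552 and 666, from 168, 149, 121, 205.3 and 97.2 in Ag. It rose by 2.16 ± 0.18 (SE, adjusted p = 3.49e-07, edgeR). Mki67, which coats mitotic chromosomes and is the usual proliferation marker, rose by 1.82 ± 0.22 (SE, adjusted p = 1.33e-05, edgeR), from 47.1 to 134 CPM to 268 to 324 CPM. Its 4.36 in Ag against Naive was again the larger step on the log2 scale, though not in CPM. The condensin subunit Ncapd2 rose by 2.21 ± 0.17 (SE, adjusted p = 2.04e-07, edgeR), from 53.8 to 97.9 CPM to 297 to 404 CPM.

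Smc4, one arm of the ATPase at the core of condensin, parted from its partners. It measured 489 and 500 CPM in Naive, 840, 791, 814, 687 and 866 CPM in Ag, and 420, 426, 451, 420 and 444 CPM in Ag+Costim. All costimulated libraries lay below all Ag libraries and also below both Naive libraries, at a log2 ratio of -0.89 ± 0.08 (SE, adjusted p = 5.03e-07, edgeR) against Ag. Against Naive the difference was -0.19 (adjusted p = 0.113, edgeR), and it was called without Ag 4 (0.0383), in a fit of the 2 groups alone (0.0478), with upper-quartile scaling, where it was -0.35 (0.00653), and in the 3 FPKM fits, at -0.37 in each. Its dimer partner Smc2 had 78.7 to 155 CPM in Ag and 270 to 345 CPM in Ag+Costim and rose by 1.41 ± 0.15 (SE). The non-SMC subunits Ncapd2, Ncapg and Ncaph rose by 2.21, 2.04 and 1.93. Smc4 (chr3:69004738-69034623, plus strand, mm10) holds Mir15b and Mir16-2 on its own strand.

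The last step, release of sister chromatids, held both the largest rise and a fall. Espl1 encodes separase, the protease that cuts cohesin. Its CPM was 1.89 and 0.924 in Naive, 13.3, 10.7, 5.64, 13.1 and 4.81 in Ag and 120, 192, 148, 108 and 145 in Ag+Costim. The lowest costimulated library stood far above all Ag libraries, and the log2 fold change was 3.91 ± 0.31 (SE, adjusted p = 2.92e-07, edgeR), or 15.1-fold, with 3.74 to 4.07 when any 1 library was left out. Pttg1 encodes securin, the inhibitor that binds separase until the checkpoint is satisfied, and went the opposite way. It had 93.6 and 96.2 CPM in Naive, 133, 119, 158, 128 and 135 CPM in Ag, and 83.2, 73.1, 96.8, 114 and 105 CPM in Ag+Costim.

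Costimulated libraries of Pttg1 lay below all Ag libraries and around the Naive level, at a log2 ratio of -0.51 ± 0.12 against Ag (SE, adjusted p = 0.00251, edgeR), which the length correction brought to -0.26 (adjusted p = 0.0566). Its rise of 0.50 in Ag against Naive was not called without Naive 1 (adjusted p = 0.121) or Naive 2 (0.103), nor in the 3 FPKM fits. Cdc20 and Ube2c, the activator and the ubiquitin-conjugating enzyme of the anaphase-promoting complex, rose by 1.40 and 1.18. The promoter window of Pttg1 held none of the CHR, CCAAT or E2F letters, and neither did that of Birc5 printed above, nor those of Cenpt, Nuf2, Mad2l1 and Nusap1. Members with a CHR match in the whole window had a median log2 fold change, Ag+Costim against Ag, of 1.76 (n = 38, 0.22 to 3.91). Those without one had 1.30 (n = 13, -0.51 to 1.93), so the ranges overlapped. With and without a match the medians were 1.69 and 1.53 for CCAAT boxes and 1.84 and 1.56 for E2F letters. For a CHR with a CCAAT box 20 to 40 bases upstream they were 1.98 and 1.57. A link between the letters and the response was not tested.

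**Figure D4:**
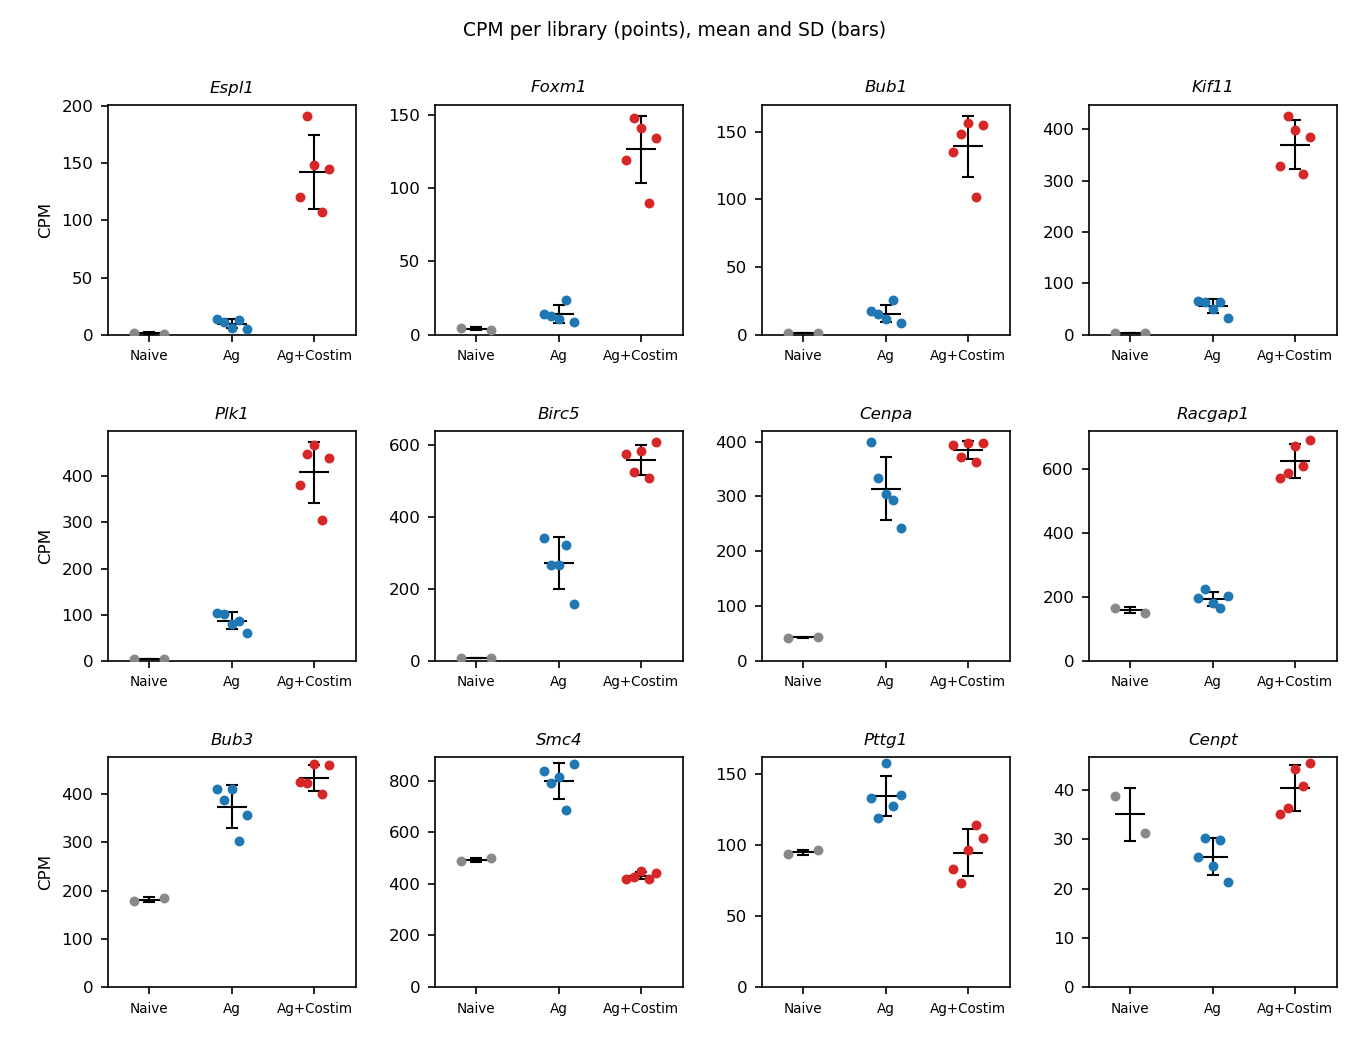
CPM (y axis, from 0) of 12 genes in each Naive, Ag and Ag+Costim library, with points for libraries and black bars for the mean and SD. Espl1, Foxm1, Bub1, Kif11, Plk1, Birc5 and Racgap1 make their larger step in CPM between Ag and Ag+Costim, whereas Cenpa and Bub3 make it between Naive and Ag. Smc4 and Pttg1 are highest in Ag. On the log2 scale Bub1, Kif11, Plk1 and Birc5 make their larger step between Naive and Ag, at 3.74, 3.99, 4.43 and 5.14.

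Levels per length place these changes on a common scale, here fragments scaled to transcript length and library size (FPKM) summed over the transcripts of a gene. In Naive the order was led by Smc4 (146 ± 6.14 FPKM, SD, n = 2), Pttg1 (109 ± 0.872) and Bub3 (94.6 ± 6.19), followed by Racgap1 at 58.8 and Cdc25b at 56.2 FPKM. In Ag+Costim it was led by Birc5 (533 ± 42.8 FPKM, SD, n = 5), Ube2c (343 ± 40.1) and Cenpa (304 ± 16.3), and Smc4 and Pttg1 had moved to places 13 and 15 of 59. Kif14 was last in all 3 groups, at 4.98 ± 0.894 FPKM in Ag+Costim. Smc4 and Pttg1, the members that fell with costimulation, were the first and second per length in Naive cells.

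The members also varied together between libraries of a group. Ag 5 was the lowest Ag library for 52 of the 59 members and Ag 1 the highest for 35, and Ag+Costim 4 was the lowest costimulated library for 52. The coefficient of variation was larger in Ag than in Ag+Costim in 58 members, all but Pttg1, with medians of 23.3% and 11.3%. Over all genes tested the medians were 21.9% and 19.4%, and 60.2% of genes varied more in Ag. In Ag 4, the library of lower depth and of the highest erythroid sum, 13 members were at their highest of the Ag libraries. Among them were Kif14, Foxm1, Bub1, Mki67 and Top2a. Without Ag 4 the members' counts in Ag+Costim against Ag were within the range of 55 to 57 higher and 2 lower seen over all fits that left out 1 library.

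Related genes that are not members were counted in the same fit of Ag+Costim against Ag, with the share of all genes called higher (26.6%) or lower (26.5%) as background. Of 29 further kinetochore and centromere genes, 24 were higher and 2 lower, with a median of 1.09, from Kntc1, of the RZZ checkpoint complex, at 3.09 to Mad2l1bp, which takes apart the checkpoint complex, at -0.74. All 15 further spindle and cytokinesis genes were higher, with a median of 1.84, from Gtse1 at 2.65 to Bora at 0.68. All 3 mitotic cyclins were higher, from Ccna2 at 2.03 to Ccnb2 at 1.01, and so were the 3 condensin II subunits, with Ncapg2 at 3.33 and Ncaph2 at 0.62. Of 12 genes of cohesin and its regulators, 10 were higher and 1 lower, between Rad21, the subunit that separase cuts, at 2.29 and the loader Nipbl at -0.97. The 14 core subunits of the anaphase-promoting complex were more mixed, with 9 higher, 4 lower and a median of 0.51, from Anapc1 at 2.39 to Anapc13 at -1.0. All 15 genes of DNA replication were higher, with a median of 1.67, from Mcm2 at 2.38 to Gins1 at 1.05.

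Antigen alone ordered these lists otherwise. In Ag against Naive, 24.2% of all genes tested were called higher and 22.5% lower. Of the further kinetochore and spindle genes, 25 of 29 and 14 of 15 were higher, with medians of 1.76 and 3.42. Of 12 cohesin genes 3 were higher, near the share of all genes, and 7 were lower. Of 12 transport kinesins 7 were lower. Rad21 and Anapc1 were lower in Ag than in Naive, by 0.66 and 1.06 on the log2 scale, and higher in Ag+Costim than in Ag. The groups are separate mice, not successive times.

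Transcript shares were compared for the 165 member transcripts that held at least 1% of their gene's transcript counts, a mean over the Ag and Ag+Costim libraries. The shares did not overlap between the 2 groups in 30 of them (18.2%), 13 higher and 17 lower in Ag+Costim, where 9.68% of all 33649 such transcripts did not overlap. The separated transcripts that fell include 7 annotated with a retained intron, of Espl1, Kif15, Kif23, Bub3, Kif22, Ncapd2 and Ect2, from means of 1.86% to 6.73% in Ag to means of 0.273% to 3.26% in Ag+Costim. The matching share of retained-intron transcripts over all genes was not counted, so these 7 are not read as particular to the members. Summed over all member transcripts, the retained-intron share overlapped between the groups, at 2.56% to 4.43% in Ag and 2.27% to 3.03% in Ag+Costim, whereas over all genes tested it did not, at 4.14% to 5.96% and 3.33% to 3.80%. The members' share annotated for nonsense-mediated decay did not overlap, at 7.03% to 12.3% in Ag and 3.70% to 4.73% in Ag+Costim. Over all genes it was 2.05% to 2.21% and 1.55% to 2.03%. The members' protein-coding share was 83.7% to 87.8% and 92.1% to 93.2%, against 83.2% to 86.3% and 88.7% to 89.8% over all genes. Smc4-207, annotated for this decay, held means of 38.4% of Smc4 counts in Ag and 56.1% in Ag+Costim, with overlap. The members' summed shares are weighted by counts, and Smc4 weighed more in Ag. It had 687 to 866 CPM in Ag, where all members summed to 4281 to 6485 CPM. In Ag+Costim it had 420 to 451 of 11953 to 14845 CPM. The shares without Smc4 were not computed, so the summed decay and protein-coding shares are not read as changes of the members at large. Shares of the short-read transcript estimates are imprecise at the low counts of some members in Ag, and no test was made on them.

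In Tpx2 the leading protein-coding transcript changed. Tpx2-206 held 19.2%, 7.80%, 18.1%, 37.1% and 15.2% of the gene's counts in Ag and 65.9%, 62.8%, 53.7%, 57.5% and 64.9% in Ag+Costim, and 62.4% and 93.6% in Naive. Tpx2-202 took the opposite course, with a mean of 43.8% ± 17.5 (SD, n = 5) in Ag and 6.42% ± 1.72 (SD, n = 5) in Ag+Costim. Espl1-202 was at 0% in 4 Ag libraries and 5.59% in Ag 1, and held 40.5%, 41.7%, 24.1%, 26.2% and 44.6% in Ag+Costim. Espl1-201 held 95.7% ± 2.29 (SD, n = 5) in Ag and 63.8% ± 9.46 (SD, n = 5) in Ag+Costim. Knl1-204 fell from 51.4% ± 8.51 to 12.2% ± 9.05 while Knl1-203 went from 5.19% ± 8.50 to 35.4% ± 9.16 (SD, n = 5 each), and the Naive libraries disagreed on Knl1-203 at 89.3% and 0%. Incenp-205 went from 13.1% ± 5.42 to 33.7% ± 8.03 (SD, n = 5 each).

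**Figure D5:**
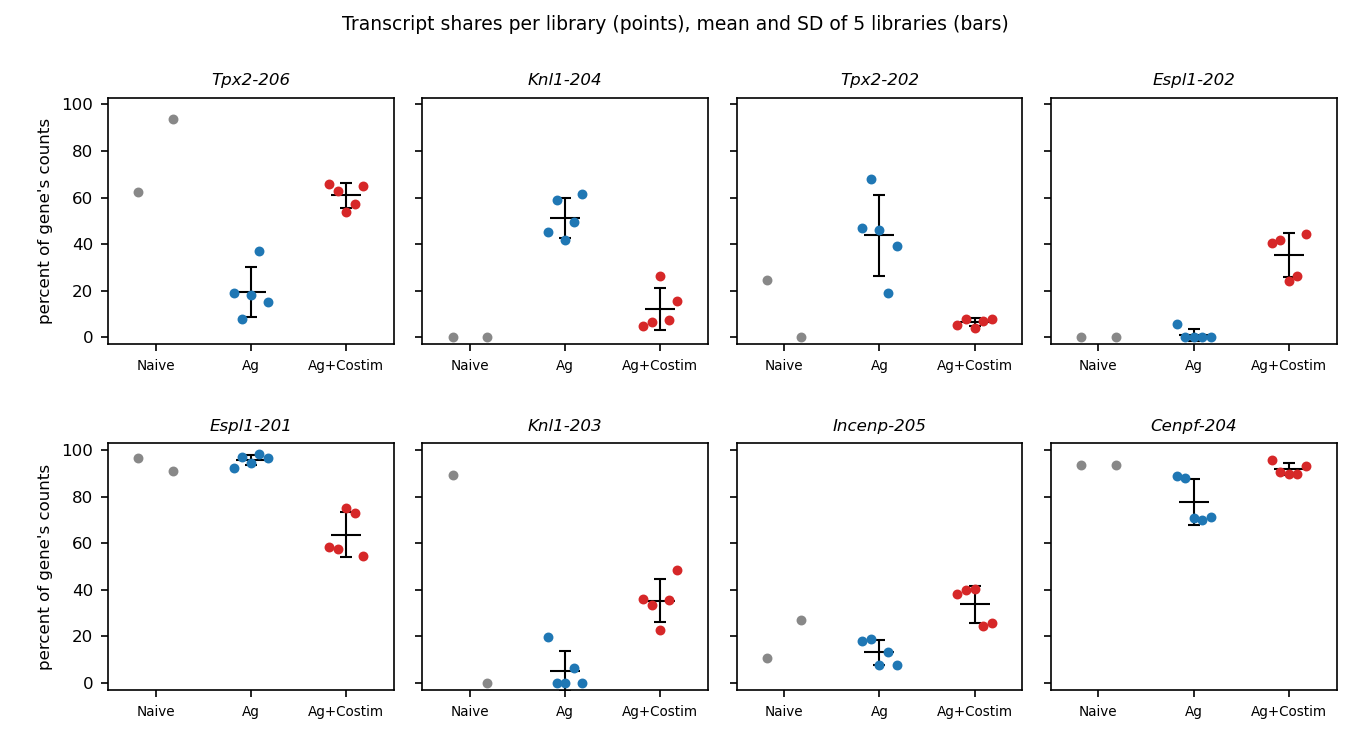
Share of its gene's transcript counts in percent (y axis) held in each library by the 8 separated transcripts with the largest difference, all protein-coding (points), with the mean and SD of the 5 Ag and 5 Ag+Costim libraries (bars). The points of Ag and Ag+Costim do not overlap in any of the 8 panels, and the Naive points of Tpx2-206 (62.4% and 93.6%) lie nearer to Ag+Costim than to Ag.

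Inclusion of single exon parts (nodes) was given as percent spliced in (Psi, a fraction from 0 to 1) with 1 value per group, so it has no replicate error. Over 1006 nodes in 58 members, 150 (14.9%) differed by more than 0.05 between Ag and Ag+Costim, where 19.1% of all 115403 nodes did. Past 0.1 were 38 member nodes (3.78%), against 7.39% of all nodes. Of these 38, 16 were transcription starts, 14 core exons, 7 tandem ends and 1 an alternative first exon. The largest differences were at starts, with the start node of Kif14 at chr1:136467958-136468769 at a Psi of 0.419 in Ag and 0.989 in Ag+Costim, and that of Cenpi at chrX:134308155-134308228 at 0.155 and 0.709. A tandem end node of Prc1, chr7:80315585-80316251, had 0.580 in Ag and 0.217 in Ag+Costim. Of the 14 core exons 10 were exons of Espl1, each of which had a higher Psi in Ag+Costim, such as 0.859 and 0.991 at chr15:102303952-102304145. Espl1 had 200 to 608 gene counts per library in Ag and 4631 to 8643 in Ag+Costim, and Kif14 98 to 408 and 1016 to 1387. Their Psi in Ag thus rests on fewer reads.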

How the data were processed

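RNA from sorted OT-I cells of 5 Ag, 5 Ag+Costim and 2 Naive samples was amplified from poly(A) with SMART-Seq v4 and sequenced as single reads of 100 bases. The authors aligned reads to mm10 with HISAT2 2.1.0 and quantified genes and transcripts with StringTie 2.1.0, and the deposited values are estimated counts per gene and per transcript, which were already whole, so that rounding changed nothing. The authors also deposited FPKM per transcript, summed here per gene name. Splicing was given by the authors as Psi, a fraction of inclusion per node (Whippet), with 1 pooled value per group. The deposited library sheet gave the counts of total reads and the percent aligned. The authors' own comparison columns (fold changes, p-values, Psi differences and their probabilities) were not used, and Psi differences were computed here with a threshold of 0.05, without the probability that had been planned as a criterion.

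Counts of genes that passed edgeR's filter on low counts (18817) were scaled by TMM and tested with the edgeR 4.0.16 quasi-likelihood test over all 12 libraries, with Benjamini-Hochberg adjustment and a threshold of 0.05. All 59 members passed the filter. Counts of reads without an annotated gene, 0.0508% to 0.121% of each library, were left out. The floor of 3 counts corresponds to 0.0609 to 0.125 CPM, and intervals and floors cover counting error only. The procedure was tested on simulated data for Ag+Costim against Ag with 18817 genes, where 144 of 200 genes changed by 1 on the log2 scale were recovered (72%) and 2 unchanged genes were called. The changed genes were drawn from those with higher counts, and Naive was simulated at the Ag level. In the data 5006 genes were called higher and 4979 lower, so the simulation does not show the error rate with that many changes. Alternatives were median-ratio and upper-quartile scaling, no filter, DESeq2 1.42.0, the groups of a comparison alone, each library left out, a replicate block, a length correction, and limma 3.58.1 on log2(FPKM + 1), log2(FPKM + 0.1) and genes of at least 1 FPKM. Other tools were R 4.3.3, Python 3.11.15, pandas 2.3.3 and scipy 1.17.1. The genes described in full are fixed anchors, the largest and smallest change of each role group and every member not called higher in Ag+Costim against Ag, and any other member named was chosen after its values were seen. The members, lists and tests were chosen with earlier results of these data known. Libraries with the same number were treated as unpaired. The correlations of their deviations from the group means were -0.0644 to 0.0951 over 9 pairs, and 0.0159 to 0.0951 between Ag and Ag+Costim. Such small values do not settle whether the samples were paired.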

Additional observations from a re-analysis of the deposited data

How the results depend on the processing

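In Ag+Costim against Ag the members kept 55 to 57 higher and 2 lower, with a median log2 fold change of 1.61 to 1.75, when 1 library was left out, and all genes gave 4688 to 5156 higher and 4494 to 5034 lower. In Ag against Naive the same fits gave 55 to 58 members higher, 0 to 1 lower, a median of 3.61 to 3.88, and 2906 to 4944 genes higher and 2807 to 4625 lower, both lowest without Naive 2. In Ag+Costim against Naive they gave 56 higher, 0 to 1 lower (Smc4, without Ag 4), a median of 5.38 to 5.50, and 3720 to 5387 genes higher and 3364 to 5143 lower. With upper-quartile scaling the members' median was 1.49 in Ag+Costim against Ag and 5.28 in Ag+Costim against Naive, with 0 members lower in Ag against Naive and 1 in Ag+Costim against Naive. Members lower in Ag against Naive were also 0 without the filter, with the 2 groups alone and with the length correction, and members lower in Ag+Costim against Naive were 1 with the 2 groups alone. The length correction left 1 member lower in Ag+Costim against Ag. The FPKM fits gave medians of 2.73, 3.44 and 2.73 in Ag against Naive and 4.16, 5.11 and 4.16 in Ag+Costim against Naive, with 1 member lower there in each, the pseudocounts setting the size of low values. The other causes were not tested. Past a Psi difference of 0.1 were 38 member nodes (3.78%, against 7.39% of all nodes) in place of 150.

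Bub3 turned to -0.11 in Ag+Costim against Ag with the length correction. The value of Pttg1, Ag+Costim against Naive, was -0.01 and not called, and changed sign to 0.012 without the filter, 0.0374 without Ag+Costim 1, 0.0741 without Ag+Costim 2, 0.00461 without Naive 2 and 0.14 with the length correction, with a range of -0.0707 to 0.0741 when 1 library was left out.

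The replicate block, fitted although the samples were treated as unpaired, gave 57 members higher and 2 lower with a median of 1.70 in Ag+Costim against Ag. It gave 55 higher and 0 lower in Ag against Naive, and 56 higher and 0 lower with a median of 5.55 in Ag+Costim against Naive. The depth of Ag 4 and the 2 Naive libraries limit the precision of the comparisons that rest on them.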
